A study of Mus musculus with 4 samples.

Results

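The genes of regulated secretion in neurons were read in Dll1-mutant neurospheres: Snap25, Syt1, Syn1 and Syp of the synaptic vesicle, the granins Scg2, Chga and Chgb of the dense-core granule, Gad1 and Gad2, which make the transmitter GABA, and the neuropeptide gene Npy. They were taken by gene name from the spots that are not controls, which gave 22 probes for these 10 genes out of 41174 probes on the array. Of the 22 probes, 16 passed the signal filter, and they cover 9 of the 10 genes. A probe passed where either RNA, mutant or wild-type, stood well above background on the 2 arrays of at least 1 mutant line. Gad2 has 1 probe and it did not pass.

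Neurons release transmitter from small clear vesicles and peptides from dense-core granules. Vesicle fusion is driven by SNARE proteins such as SNAP-25 and is triggered by calcium through synaptotagmin, while granins pack the granules and are themselves cut into peptides. Outside neurons and endocrine cells many of these genes are held low by the repressor REST, which binds a long DNA element called RE1 with its corepressors. Neurospheres are floating cultures of neural stem and progenitor cells, and they hold some cells that have begun to differentiate.

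The neurospheres came from 2 lines of Dll1-mutant mice, Dll1-3 and Dll1-5, and from wild-type mice, all from a cross of 129/Sv with C57BL/6. Dll1 is a membrane ligand of Notch receptors. All cultures were grown without serum and with EGF. The labels give neither the mutated allele nor the age of the mice. On each of the 4 arrays a mutant RNA was set against wild-type RNA in the second colour, and the dyes were swapped between replicate 1 and replicate 2 of each line. RNA was pooled before hybridisation, so each line was read as 1 replicate and a value over both lines has n = 2, with the SD taken between the line means. The same kind of wild-type RNA stands against both lines and its own spread is left out.

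Unless a signal is named, each value is a log2 ratio with mutant on top and wild type below. An offset of 50 was added to the signals before the logarithm, which shrinks the ratios of dim probes. On each array, 80.0% to 82.1% of probes were well above background in either RNA, and the small number of arrays limits the precision. The Dll1 probe gave -3.31 and -3.22 on the Dll1-3 arrays, with -1.65 and -1.64 on those of Dll1-5, for a mean of -2.46 (SD 1.15; limma adjusted p = 0.121). Dll1 signal was thus lower in mutant RNA on all 4 arrays. Whether the probe lies in the mutated part of Dll1 is not known here. All 8 neural stem cell markers read passed the signal filter.

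Chgb, Gad1 and Syt1 had the lowest ratios, in both lines, and Snap25, Syp, Scg2, Chga and Npy lay close to 0. The signals of Snap25, Syp, Scg2 and Npy were dim, and the offset shrinks such ratios. With other processing the mean reached -0.59 for Syp and -0.60 for Snap25 probe A_52_P286421. The means of Scg2, Chga, Npy and Snap25 probe A_51_P335555 stayed between -0.11 and 0.22. None of the 16 probes passed limma's adjusted p of 0.05 over both lines, where the share among all 34444 probes tested was 0%. At an unadjusted p under 0.05, 5 of the 16 were lower in mutant RNA, against 15.2% of all probes, and 0 were higher, against 11.7%. These 5 probes belong to Chgb, Gad1 and Syt1 and are described first by their promoters and then by their values. The other 11 of the 16 probes had means between -0.30 and 0.13, with limma adjusted p between 0.192 and 0.988. Where both RNAs had to be above background on all 4 arrays, 4 of 10 probes were lower. The share of all probes under that filter is not given here. Over the 16 probes the median was -0.17, beside 0.01 over all probes tested.

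The 250 bases before the start of transcription are printed for Chgb, Gad1 and Syt1, whose ratios were low, and for Scg2, a granin whose ratio was near 0. They are from RefSeq, assembly GRCm38.p6, 5′ to 3′ on the strand of the gene, and the last base lies directly before the start. Capitals mark 7-letter pieces of the RE1 core, CAGCACC or GGACAGC, and the cyclic AMP response element TGACGTCA, a binding element of the CREB family. The pieces were searched on both strands of 32851 windows that reach from 250 bases before to 50 bases after a start. TGACGTCA was chosen after these windows had been read. It shares no overlap with the RE1 pieces here, and Syt1 has a second window, not printed, that holds no match either.

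Chgb, chr2:132781392-132781641, plus strand: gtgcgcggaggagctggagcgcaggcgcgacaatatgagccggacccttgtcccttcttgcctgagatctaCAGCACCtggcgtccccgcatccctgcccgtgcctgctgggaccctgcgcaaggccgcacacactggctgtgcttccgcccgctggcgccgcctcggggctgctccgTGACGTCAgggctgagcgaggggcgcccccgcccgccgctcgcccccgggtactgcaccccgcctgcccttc

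Scg2, chr1:79440027-79440276, minus strand: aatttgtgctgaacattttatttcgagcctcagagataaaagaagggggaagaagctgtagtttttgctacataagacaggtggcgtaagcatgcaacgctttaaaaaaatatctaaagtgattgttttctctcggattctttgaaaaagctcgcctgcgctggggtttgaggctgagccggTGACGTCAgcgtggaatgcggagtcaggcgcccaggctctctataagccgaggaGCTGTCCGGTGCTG

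Gad1, chr2:70561879-70562128, plus strand: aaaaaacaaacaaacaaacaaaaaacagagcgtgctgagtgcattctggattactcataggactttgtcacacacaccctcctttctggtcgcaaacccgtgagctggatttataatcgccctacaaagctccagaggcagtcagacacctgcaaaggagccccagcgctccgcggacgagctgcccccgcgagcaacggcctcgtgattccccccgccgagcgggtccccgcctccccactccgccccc

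Syt1, chr10:109010976-109011225, minus strand: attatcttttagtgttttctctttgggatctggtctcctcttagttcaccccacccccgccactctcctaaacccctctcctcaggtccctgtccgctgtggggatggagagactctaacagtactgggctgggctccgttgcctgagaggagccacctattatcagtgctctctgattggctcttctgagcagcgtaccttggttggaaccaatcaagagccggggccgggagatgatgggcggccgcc

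The Chgb window holds CAGCACC from -179 to -173 and TGACGTCA from -72 to -65, counted from the start of transcription. The Scg2 window holds TGACGTCA from -68 to -61, and on the opposite strand CAGCACC and GGACAGC lie side by side between -14 and -1. The windows of Gad1 and Syt1 hold none of these letters. Among all windows, CAGCACC is present in 7.14%, GGACAGC in 6.56% and TGACGTCA in 1.79%. The RE1 core, meaning CAGCACC, 2 free bases and GGACAGC with up to 2 of the 14 letters changed, is present in 0.773% of windows, and exactly in 0.0213%. Of the 10 windows of 9 of the genes, 2 hold the core with changes and 0 hold it exactly, 3 hold CAGCACC, 2 hold GGACAGC and 3 hold TGACGTCA. The Gad2 core, with 1 letter changed, reads tagcaccctggacagc and the Syn1 core, with 2 changed, reads cagcaccgcggtcaga. Syn1 holds TGACGTCA from -159 to -152. Both promoters with and promoters without these letters are found among the genes with low ratios and among those near 0. Snap25 was not analysed here for sequence.

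Chgb encodes chromogranin B, a calcium-binding granin that drives granule formation. Its probe A_51_P191669, on chromosome 2 from 132308821 to 132308880 in the array file's coordinates (build not given in the sources used here), was at -1.76 and -1.89 in Dll1-3 and at -1.60 and -1.76 in Dll1-5. Its normalised signals were 90.4, 112, 102 and 124 in mutant RNA, against 306, 416, 311 and 421 in wild-type RNA, in the order Dll1-3 replicate 1 and 2, then Dll1-5 replicate 1 and 2. All 4 mutant signals lay below all 4 wild-type signals. The share of all probes that separate in this way was not counted. Statements on overlap, here and for the probes below, therefore only describe the signals. The mean ratio was -1.75 (SD 0.10, n = 2 lines), which is 3.37-fold lower in mutant RNA (limma unadjusted p = 0.000490, adjusted p = 0.0756). The size depends on the processing: the mean was -2.33 with an offset of 10 and -2.85 with the scanner software's ratios. It was the only one of the 16 probes at least 2-fold lower on all 4 arrays, a class that holds 2.26% of all probes. The class at least 2-fold higher on all 4 arrays holds 1.41% and 0 of the 16.

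This probe is printed 10 times on each array, the only one of the 22 with more than 1 spot. The median of the 10 spots was -1.81 and -1.92 in Dll1-3 and -1.63 and -1.77 in Dll1-5, with an SD between spots of 0.07 to 0.13. No spot was above -1.35. The repeated spots share 1 labelled RNA, so they show how well an array repeats a measurement and are not replicates.

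**Figure D1:**
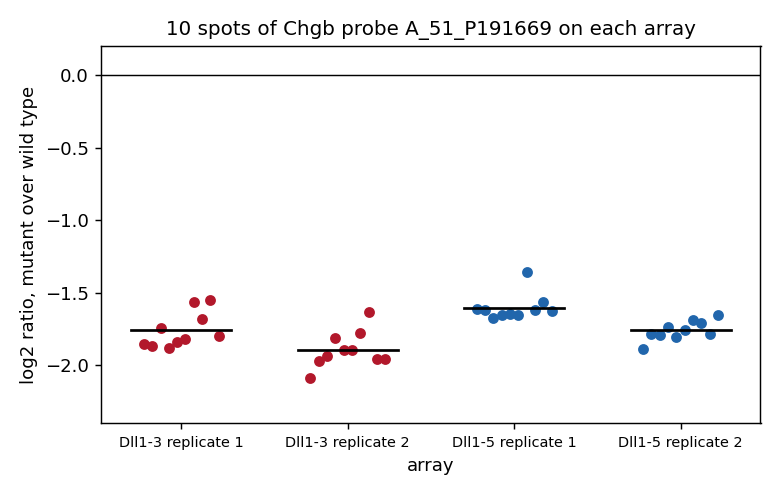
The log2 ratio of mutant over wild-type signal (vertical axis) of each of the 10 spots of Chgb probe A_51_P191669 on each array (horizontal axis), with Dll1-3 in red, Dll1-5 in blue and a bar at the mean. All spots lie at -1.35 or below.

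A second Chgb probe, A_52_P652560, lies 11.113 kb upstream and comes from a cDNA clone. It was at 0.06, 0.03, 0.08 and 0.02 on the 4 arrays, a mean of 0.05 (SD 0.00). Its mutant signals were 62.6 to 86.6, against wild-type signals of 62.0 to 84.7, and the groups overlapped. The 2 Chgb probes therefore gave different values on the same arrays, and which transcript each detects was not tested.

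Gad1 encodes GAD67, the enzyme that makes most of the GABA in neurons from glutamate. Probe A_51_P282538 was at -1.65 and -1.16 in Dll1-3 and at -0.94 and -1.18 in Dll1-5. Its signals were 80.0, 154, 131 and 133 in mutant RNA, against 250.5, 344, 251 and 301 in wild-type RNA, and the groups did not overlap. The mean was -1.23 (SD 0.24, n = 2 lines; limma unadjusted p = 0.00359, adjusted p = 0.0778), and it was -1.94 with the scanner software's ratios. Probe A_52_P144310 was at -1.18 and -1.32 in Dll1-3 and at -0.73 and -0.95 in Dll1-5, with signals of 144, 140.2, 202 and 198 in mutant RNA and 326, 349, 336 and 381 in wild-type RNA. Its mean was -1.04 (SD 0.29; limma unadjusted p = 0.00759, adjusted p = 0.0869), and its groups did not overlap either. Both probes were 2-fold lower on both arrays of Dll1-3 and on 1 or 0 arrays of Dll1-5.

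The files place probe A_51_P282538 on chromosome 10, from 99426655 to 99426714, where RefSeq has Gad1 on chromosome 2, and they place A_52_P144310 nowhere. The gene name therefore rests on the accession given for each. The last Gad1 probe, A_52_P663538, from a cDNA clone, was not above background in any channel. Gad2, which encodes GAD65, the form tied to vesicle membranes, was above background on 1 of 4 arrays in mutant RNA and 1 of 4 in wild-type RNA. Its ratios of 0.12, -0.14, 0.02 and -0.19 thus carry no measured difference, and no comparison of the Gad genes was made.

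Syt1 encodes synaptotagmin 1, the calcium sensor of fast release. Probe A_52_P103929, on chromosome 10 from 108385102 to 108385161, was at -1.19 and -1.05 in Dll1-3 and at -1.23 and -0.97 in Dll1-5. Its signals were 73.2, 87.5, 68.8 and 97.6 in mutant RNA, against 167, 181, 161 and 191 in wild-type RNA, and the groups did not overlap. The mean was -1.11 (SD 0.02, n = 2 lines; limma unadjusted p = 0.00118, adjusted p = 0.0756), and the line means of -1.12 and -1.10 were the closest of the 5 probes. With the scanner software's ratios the mean was -2.63.

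A neighbouring Syt1 probe, A_51_P297900, was at -1.08 and -1.07 in Dll1-3 and at -0.51 and -0.59 in Dll1-5. It shares 11 bases with the first and its start lies 0.049 kb upstream. Its mutant signals were 57.2, 67.4, 101 and 113 and its wild-type signals were 121, 141, 144 and 170.1, so the groups did not overlap. On the Dll1-3 arrays mutant RNA did not stand well above background, so the level there is given as a bound, at least 2.10-fold lower. The mean over both lines was -0.81 (SD 0.37; limma unadjusted p = 0.0233, adjusted p = 0.129), and it was -2.49 with the scanner software's ratios.

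The further Syt1 probes lie upstream of this pair. A_52_P94201, 143.67 kb upstream, was at -0.21, -0.23, -0.23 and -0.41, a mean of -0.27 (SD 0.07; limma adjusted p = 0.192). Its mutant signals of 89.6 to 106 lay close to its wild-type signals of 105 to 124, and the groups overlapped. The probes 1.731, 2.414 and 401.24 kb upstream did not pass the signal filter, with means of -0.09, -0.09 and -0.15. The low ratios of Syt1 thus came from 2 overlapping probes at the 3′ end.

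**Figure D2:**
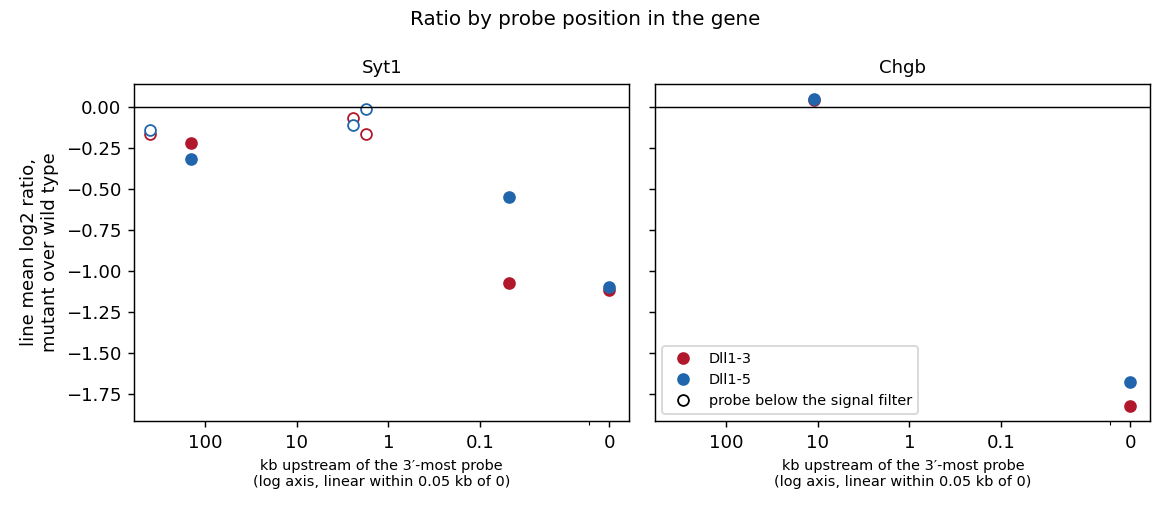
The mean log2 ratio of each line (vertical axis) against the distance in kb upstream of the 3′-most probe (horizontal axis, log scale, linear near 0) for 6 Syt1 and 2 Chgb probes, with open symbols for probes below the signal filter. The probes near 0 kb are the lower ones: Syt1 at -1.11 and Chgb at -1.75 over both lines.

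**Figure D3:**
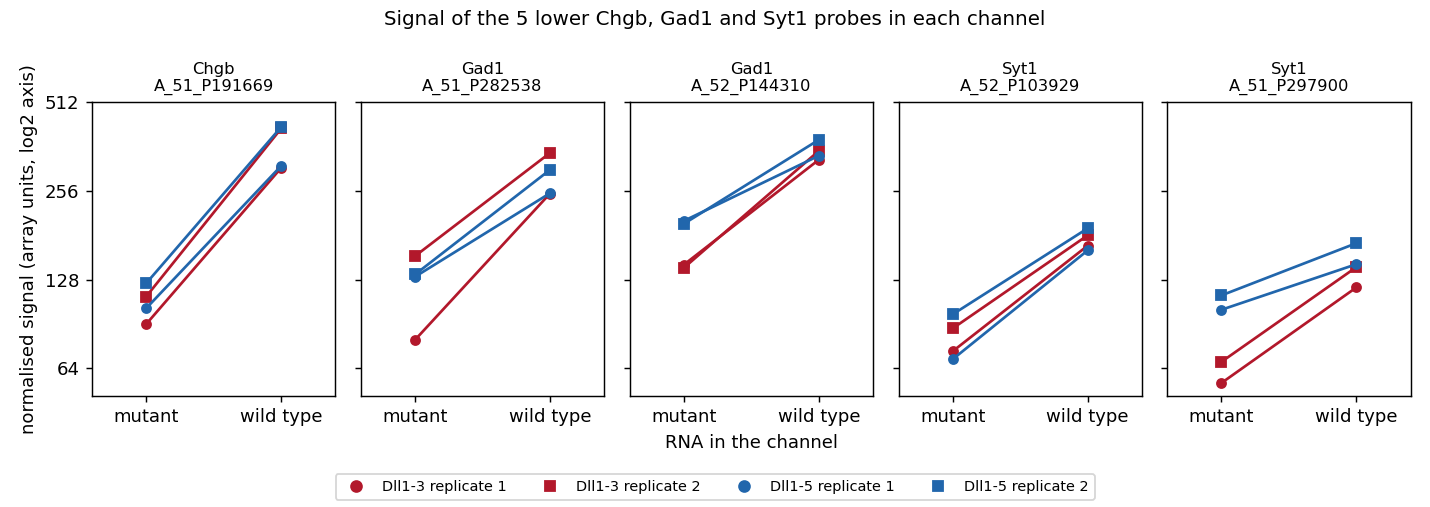
The normalised signal (log2 axis, array units) of the 5 lower Chgb, Gad1 and Syt1 probes in mutant RNA (left) and wild-type RNA (right), with a line for each array. Each line falls towards the mutant side, as in Chgb, at 90.4 to 124 in mutant RNA and 306 to 421 in wild-type RNA.

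Among the vesicle genes near 0, Snap25, which encodes the SNARE of the plasma membrane side, had 3 probes. A_51_P335555 was at 0.05, 0.08, 0.07 and 0.15, and A_52_P286421 was at -0.20, -0.07, -0.25 and -0.11. Their means were 0.09 (SD 0.03; limma adjusted p = 0.575) and -0.15 (SD 0.03; limma adjusted p = 0.344), so the probes disagreed in sign. Both were dim: mutant RNA was above background on 2 of 4 arrays for each, and wild-type RNA on 3 and 4 of 4.

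Syp encodes synaptophysin, an abundant protein of the vesicle membrane. It was at -0.34, -0.11, -0.24 and -0.02, a mean of -0.18 (SD 0.07; limma adjusted p = 0.316). Its mutant signals were 74.7, 84.4, 80.8 and 88.1, against 94.4, 91.0, 95.4 and 89.1 in wild-type RNA. The groups thus lay close together, with the highest mutant signal, 88.1, just below the lowest wild-type signal, 89.1.

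Syn1 encodes synapsin I, which tethers vesicles to actin. Probe A_52_P482360 was at -0.43 and -0.52 in Dll1-3 and at -0.11 and -0.16 in Dll1-5, with signals of 24267, 25207, 27548 and 29084 in mutant RNA and 32720, 36032, 29661 and 32526 in wild-type RNA. The mean was -0.30 (SD 0.24; limma adjusted p = 0.283), but centring by the median without loess gave 0.26, so its direction is uncertain. Probe A_51_P420684, 59.87 kb downstream, was at -0.21, -0.02, -0.04 and 0.10, a mean of -0.04. Its signals were far dimmer, at 137 to 164 in mutant RNA and 143 to 158 in wild-type RNA. The level of Syn1 RNA can therefore not be read from these 2 probes. The last, A_51_P415095, lies on the opposite strand and was at 0.30, 0.10, -0.52 and 0.65, with no common direction. Which transcripts these probes detect was not tested.

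Of the other granins, Scg2 encodes secretogranin II, the precursor of secretoneurin. It was at 0.02, 0.06, 0.01 and 0.00, a mean of 0.02 (SD 0.02; limma adjusted p = 0.879). Chga encodes chromogranin A, and was at 0.00, 0.18, 0.06 and 0.11, a mean of 0.09 (SD 0.00; limma adjusted p = 0.564). Scg2 was above background on 3 of 4 arrays in mutant RNA and 2 of 4 in wild-type RNA, and Chga on all 4 in both. Scg2, Chga and the clone probe of Chgb thus all lay between 0.00 and 0.18. Among the probes of Scg2, Chga and Chgb, only Chgb probe A_51_P191669 was low. Scg3, a further granin read with the wider machinery below, was also low, at -2.97 in Dll1-3 and -2.27 in Dll1-5. The dim Scg2 signal limits what its ratio can show.

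Npy encodes neuropeptide Y, a peptide of forebrain interneurons. It was at -0.01, 0.10, -0.26 and 0.18, a mean of 0.00 (SD 0.06; limma adjusted p = 0.988). Its mutant signals of 75.3 to 111 overlapped with its wild-type signals of 75.9 to 112.

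**Figure D4:**
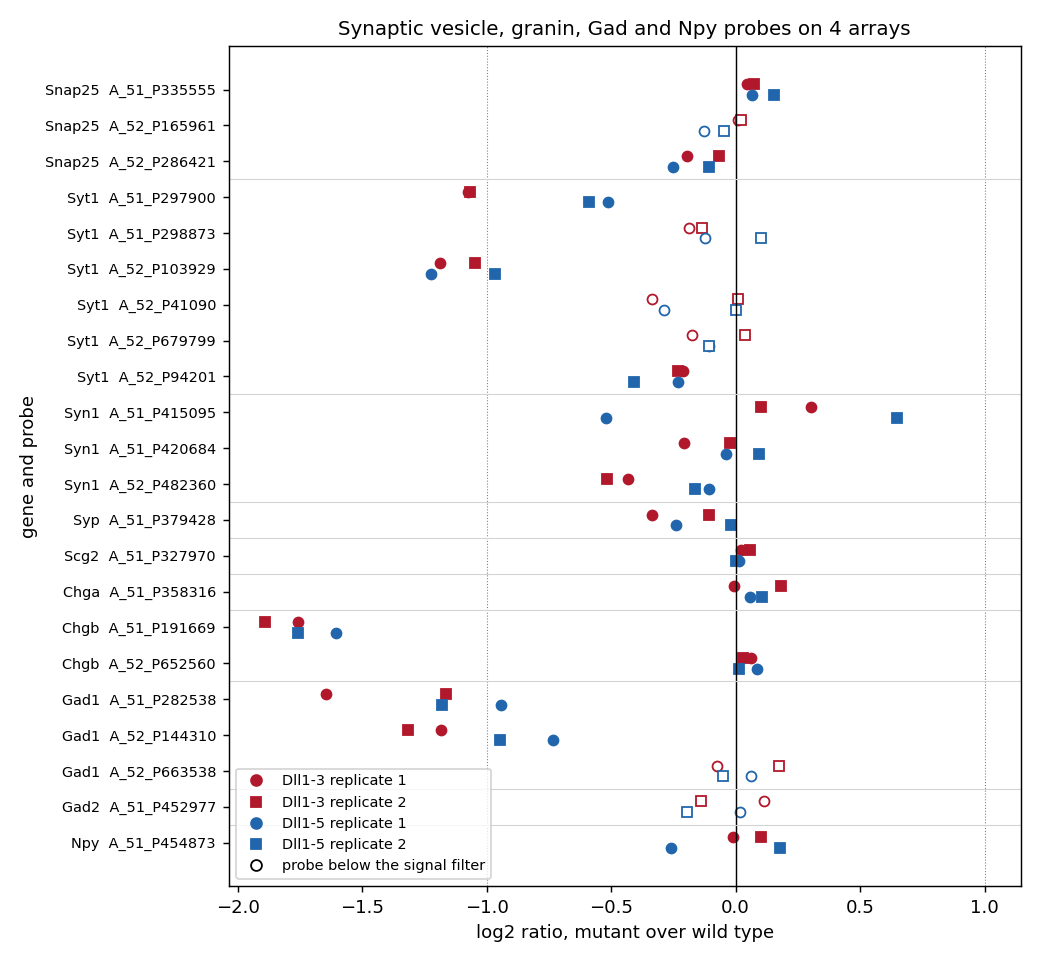
The log2 ratio of mutant over wild-type signal (horizontal axis) for each of the 22 probes (rows) on each array, with Dll1-3 in red, Dll1-5 in blue, open symbols for probes below the signal filter, and dotted lines at 2-fold lower and higher. The points of A_51_P191669 of Chgb, from -1.89 to -1.60, and 1 point of Gad1, at -1.65, lie furthest left, and the points of Scg2 and Chga lie near 0.

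The lines were read apart with no test, since each was read as 1 replicate on 2 dye-swapped arrays. In Dll1-3, 5 of 15 probes were at least 2-fold lower on both arrays, against 5.37% of all probes, and 0 were at least 2-fold higher, against 4.12%. In Dll1-5, 1 of 13 was at least 2-fold lower, which was Chgb, against 3.18%, and 0 were higher, against 2.68%. The probes counted in Dll1-3 are the 5 of Chgb, Gad1 and Syt1. Of these, Syt1 probe A_51_P297900 passed the filter in Dll1-3 through wild-type RNA only. The Dll1-3 count was 4 where both RNAs had to be above background on all 4 arrays. The share of all probes under that filter is not given here. Without background correction the Dll1-3 count was 3, and with an offset of 10 the Dll1-5 count was 3. Median ratios of the probes were -0.18 in Dll1-3 and -0.13 in Dll1-5. No probe met the rule for a difference between the lines, 2-fold with the arrays apart, which 3.88% of all probes met. Of the 4 lower probes above background in both RNAs on every array, Gad1 probe A_52_P144310 differed most, at -0.84 in Dll1-5 and -1.25 in Dll1-3, a difference of 0.41 that was not tested. Syt1 probe A_51_P297900 has only a bound in Dll1-3, so no difference is given for it.

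The wider machinery was read from lists of genes chosen for their roles, 1 probe per gene, the one of highest intensity. At least 2-fold lower on all 4 arrays was the rule for the counts, met by 2.74% of all genes, and 2-fold higher by 1.67%. Of 28 genes of SNARE and vesicle fusion, 1 was lower and 0 higher, with a list median of -0.06. Of 28 genes of the synaptic vesicle membrane, 4 were lower and 0 higher, with a median of -0.01. Of 6 genes of granule biogenesis, 2 were lower, with a median of -0.44. Of 14 neuropeptide genes, 0 were lower or higher, with a median of 0.03. The listed NPY receptor genes Npy1r, Npy2r and Npy5r did not pass the signal filter, so no receptor is counted. Of 15 genes of GABA synthesis and transport, 3 were lower, with a median of -0.09. The median of all genes was 0.01. Counts are of listed genes that passed the signal filter.

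In the vesicle lists, Syt11, a relative of Syt1 that does not bind calcium, was at -2.30 over both lines (SD 0.19). Sv2c, a vesicle glycoprotein, was at -1.99 (SD 0.05). Syn2, the sister of Syn1, was at -2.25 in Dll1-3 and -1.10 in Dll1-5. Its other probes gave -1.59 and -1.58. Synpr, a relative of Syp, was at -1.51 (SD 0.15), where its other probe was at 0.03, and 1 of the other Syt11 probes was of opposite sign. Cadps, which primes granules for fusion, was not above background in mutant RNA on any array and was at least 2.87-fold lower, while its other probe was at -0.19. Snap29, a SNARE of internal membranes, was at -1.21, with its other probes at -0.03.

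In granule biogenesis, Cpe, the carboxypeptidase that trims prohormones, was at -4.88 in Dll1-3 and -3.38 in Dll1-5. Its other probe was at -3.04. Scg3, a granin that binds chromogranin A to the granule membrane, was at -2.97 in Dll1-3 and -2.27 in Dll1-5. In the GABA list, Abat, which breaks GABA down, was at -3.37 (SD 0.90) with other probes between -0.40 and 0.07, and Slc6a11, a GABA transporter, was at -1.71 (SD 0.20) with its other probe at -0.34. Of the neuropeptides, Vip and Trh, at 0.21 and 0.15, were the furthest from 0. Both were dim. Vip was above background on 3 of 4 arrays in mutant RNA and 1 of 4 in wild-type RNA, and Trh on 4 and 3 of 4.

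The REST list, 15 genes, held 0 that were 2-fold lower or higher, with a median of -0.04. Rest itself was at 0.16 (SD 0.15), with mutant signals of 851, 884, 1035 and 1010.0, against 769, 908, 788 and 921 in wild-type RNA, and the groups overlapped. Rcor1, which encodes CoREST, was at 0.94 (SD 0.17), with its other probes at 0.31 and 0.39. The demethylase Kdm1a was at -0.86 (SD 0.33). No direct reading of repressor activity was made.

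**Figure D5:**
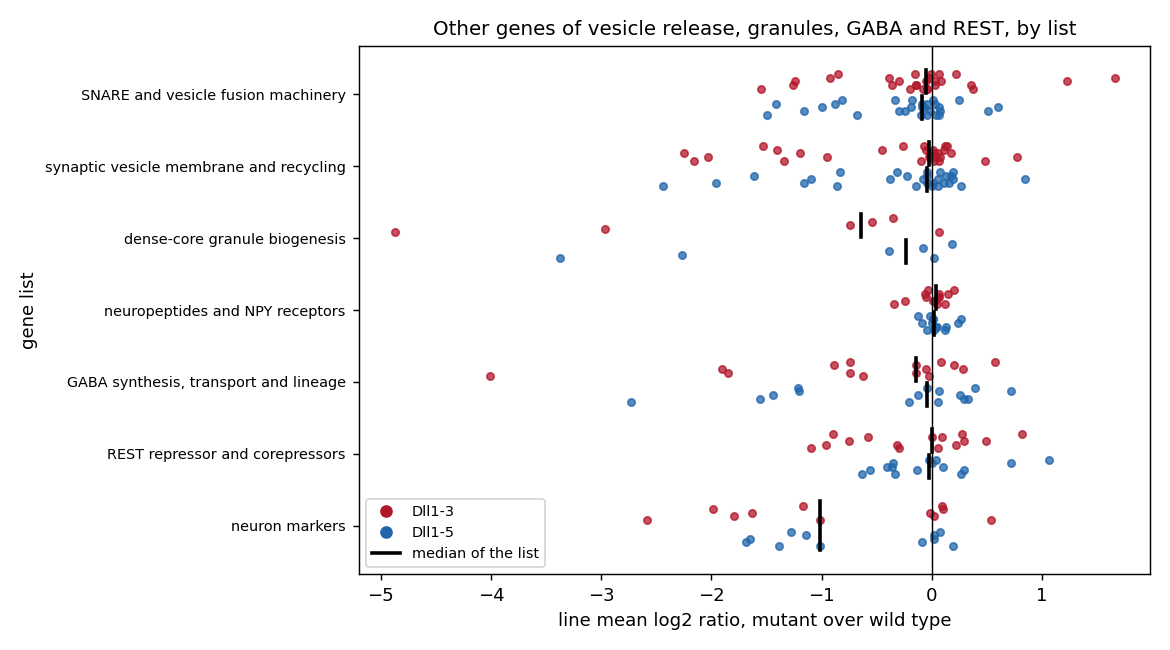
The mean log2 ratio of each line (horizontal axis) for the genes of the vesicle, granule, peptide, GABA, REST and neuron marker lists (rows), 1 point for each gene, Dll1-3 in red above Dll1-5 in blue, with a bar at the median of the list. Cpe of granule biogenesis is at -4.88 and -3.38, and the neuropeptide median is 0.03 over both lines.

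Several cell type markers were also low. Of 11 neuron markers, 4 were at least 2-fold lower on all 4 arrays and 0 higher, with a median of -1.01. Their summed signal was 4864 to 5322 in Dll1-3 and 8885 to 8897 in Dll1-5, against 20790 to 21289 in wild-type RNA. Most of the wild-type sum came from Map2, at 12358 to 13185, and Mapt, at 5339 to 5868. Mapt was at -1.99 in Dll1-3 and -1.14 in Dll1-5. Each of the 11 was above background in mutant RNA on all 4 arrays except Gap43, on 3 of 4. Map2, Dcx and Elavl3, markers of neurons and their precursors, were at -1.99, -1.74 and -1.64. The other passing Dcx probe was at -0.01, and the other Map2 probes lay between -1.43 and -0.23. Ina was at 0.36, and Rbfox3, Nefl, Stmn2 and Elavl4 were at 0.08, 0.06, 0.00 and -0.03. Of 8 neural stem cell markers, 3 were lower, among them Hes5 at -4.83, with a list median of -0.58. Their summed signal was 56020 to 79768 in mutant RNA and 102090 to 113661 in wild-type RNA. Of 8 astrocyte markers, 1 was lower on all 4 arrays by this rule, but the list median was -1.21, below that of the neuron markers. Their summed signal was 13568 to 18765 in mutant RNA and 41610 to 44810 in wild-type RNA. Of 9 oligodendrocyte lineage markers, 3 were lower and 1, Cspg4 at 2.59, was higher, with a list median of -0.52. Their summed signal was 17404 to 18487 in Dll1-3 and 32169 to 35206 in Dll1-5, against 36571 to 38884 in wild-type RNA. Of 7 microglia and blood markers, 0 were lower or higher, with a summed signal of 1153 to 1302 in mutant RNA and 1153 to 1298 in wild-type RNA. Of 4 endothelial markers, 0 were lower or higher, with a summed signal of 380.8 to 430.2 in mutant RNA and 409.6 to 439.6 in wild-type RNA. The list medians were 0.02 for microglia and blood markers and 0.03 for endothelial markers. The part of the cell makeup in the values of Chgb, Gad1 and Syt1 was not tested, and fewer cells of a type and less RNA per cell cannot be told apart in such pooled RNA.

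The 5 lower probes of Chgb, Gad1 and Syt1 kept their sign under every alternative run. The number of the 16 probes past an adjusted p of 0.05 depended on the setting, as did that of all probes. With Dll1-3 replicate 1 left out 4 passed, beside 2402 of all probes, and with Dll1-5 replicate 2 left out 3 passed, beside 2830. With either of the other arrays left out 0 passed. With an offset of 10, 3 passed, beside 1718, and with the scanner software's ratios 2 passed, beside 938. With the 4 arrays as separate samples 6 passed, beside 11301, with the dye orientation as a block 6, beside 9624, and with the line as random block 5, beside 9573.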

How the data were processed

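The authors deposited spot intensity values of 4 arrays, each with 43790 spots. Agilent Feature Extraction 8.1.1.1 produced them, per the submitters' processing notes. The files also hold the scanner software's log10 ratio of Cy5 over Cy3, per the file headers. A deposited value table of the series (log10) was used as an alternative: it ran wild type over mutant (r of -0.962 to -0.954 with the turned scanner ratios), so its sign was turned, and its centring is unstated.

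Mean signals were background-corrected with normexp at offset 50 and loess-normalised within arrays (span 0.3) in limma 3.58.1 and R 4.3.3, with control and outlier spots at weight 0 and left out. Of 41174 probes, 34446 passed the filter and 34444 had values in both lines. The 2 arrays of each line were averaged, and the line means were tested against 0 (1 residual degree of freedom, prior 1.73, Benjamini-Hochberg over the tested probes). The fit was tested on simulated data. The design text does not settle whether both arrays of a line came from the same pools, and p-values measure only the spread between these samples. Channel signals, after Aquantile, include the offset. Bounds compare the brighter group with, per array, the dim probe's signal or the lowest one of any probe above background, whichever was higher.

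Members, lists, the naming rule and tests were chosen with earlier results of these data known. Up to 4 genes of a list were named, 2-fold on all 4 arrays first, and up to 3 of a marker list. Not every gene the rule names is reported here. Alternatives covered background, normalisation, scanner and deposited ratios, filters, outlier spots, probes per gene, left-out arrays, the unit of replication and the fold threshold.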

Additional observations from a re-analysis of the deposited data

Results flagged for a closer look

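Snap25 probe A_52_P165961 differed in sign between the lines: its mean log2 ratio was -0.09 in Dll1-5 and 0.02 in Dll1-3, a difference of -0.10. Both Dll1-5 arrays were below 0 and both Dll1-3 arrays were above it. The difference was not tested, and the probe was not well above background in any channel.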

How the results depend on the processing

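No value reversed a called direction under any alternative. Over all probes, 0 passed the adjusted p of 0.05 in the reported fit, against 1718 with offset 10, 938 with the scanner software's ratio, 0 to 2830 with 1 array left out, 11301 with the arrays as separate samples, 9624 with the replicate block, and 9573 where the line was a random block. These last 3 settings count the arrays of a line apart, although they were read as 1 pool. The replicate number is the dye orientation (r = 0.677 between the replicate 1 deviations of the lines), and the block was no biological pairing. Probes of the 10 genes lower at an unadjusted p under 0.05 numbered 5, against 8 with the scanner ratio, 9 with the replicate block, and 3 genes with the brightest probe or the mean of probes per gene. Lower by 2-fold in Dll1-3, 5 probes became 3 with no background correction, 3 with the brightest probe and 1 with the mean of probes. In Dll1-5, 1 probe became 3 with offset 10, the scanner ratio or the deposited table, 2 with median centring, 0 with the mean of probes, 2 with either array left out and 4 at 1.5-fold. Between lines, 0 became 1 with offset 10, the scanner ratio or the deposited table. The Chgb ratio ranged from -2.85 to -1.60. The Syt1 ratio of A_52_P103929 ranged from -2.63 to -0.96, and was -1.78 with offset 10.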
